A study of Homo sapiens with 8 samples.

Results

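The genes described here encode soluble lysosomal hydrolases, the activator proteins that assist them, proteins of the lysosomal membrane and the receptors that deliver the enzymes, without the proton pump. The list held 50 genes, and 49 of the 18239 genes measured were found on the array, while AGA was not analysed here. The list was put together by gene function after earlier results of these arrays were known, among them the rise of DNASE2, and each gene's probe set was chosen by its mean signal over the 8 arrays. The number of members that passed a test is therefore a description, set beside the same share over all genes.

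Lysosomes are acidic compartments in which hydrolases cut glycosaminoglycans, lipids, proteins, glycans and nucleic acids brought in by endocytosis and autophagy. Most soluble hydrolases receive a mannose 6-phosphate tag in the Golgi and are carried on by the mannose 6-phosphate receptors M6PR and IGF2R. Membrane proteins line the compartment, export the products and position the organelle. The transcription factors of the MiT-TFE family, such as TFEB, are known to bind an E-box in the promoters of many lysosomal genes. In squamous carcinoma cells, secreted cathepsins are also known to cut matrix proteins.

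The study used 4 established lines of human oral squamous cell carcinoma (OSCC), namely SAS-L1, HSC2, HSC3 and Ca9-22. Each line was transfected with 20 nM of a miR-375-3p mimic, a synthetic copy of the mature miRNA, or with 20 nM of miR-NT, a non-targeting mimic used as the negative control, and total RNA was taken at 48 h. The comparison asks how the mimic changed gene expression in these lines. All 8 arrays (4 with the mimic and 4 with miR-NT, 1 per line and condition) came from transfected cells, so no untreated cells were measured, and each line had 1 array per condition, which allows no test within a line. Values are log2 signals of the robust multichip average (RMA), and differences are the mimic minus miR-NT within a line. A gene is said to have risen or fallen where limma's adjusted p over all genes was under 0.05 with the cell line as a block. Signals come from bulk RNA, in which a change in every cell and a larger change in a share of the cells cannot be told apart. Values by array are given in the order SAS-L1, HSC2, HSC3 and Ca9-22.

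The array medians lay between 4.96 and 5.0, and the median of all probe sets was 5.01. Of all genes, 1342 rose and 946 fell, and the median difference was 0.03. Squamous markers were bright on these arrays, with mean miR-NT signals of 7.48 to 11.06 for the 6 of 10 measured. Of these KRT5 fell (difference -1.73, limma adjusted p = 0.0320) and SFN fell (-0.43, adjusted p = 0.0293). With SAS-L1, HSC2 or Ca9-22 left out the adjusted p was 0.0884 to 0.0959 for KRT5 and 0.0561 to 0.0996 for SFN. The other 4 did not pass, with differences of -0.94 for KRT14, -0.13 for DSP, 0.0 for CDH1 and 0.39 for EPCAM. The macrophage and immune markers were dim, at 3.20 to 5.97 with miR-NT, and 7 of 8 lay below the median of all probe sets. Their average over the list was 4.12 to 4.39 on the mimic arrays and 4.16 to 4.18 on the miR-NT arrays, and none of the 8 passed the test in limma. The highest average was that of HSC3 with the mimic, where CD14 differed by 1.21, TYROBP by 0.45 and CSF1R by 0.30. In that line AIF1, PTPRC and LYZ differed by 0.09, 0.03 and 0.02, and CD53 and CD163 by -0.11 and -0.21. CD14 was dim, with a mean miR-NT signal of 3.41, and differed by -0.11 to -0.05 in the other lines. Fibroblast and endothelial markers were dim too, with none of 6 and none of 5 passing, and no gene of these 3 lists was under an unadjusted p of 0.05.

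The mature sequence of the miRNA that was introduced is shown because its seed, bases 2 to 8 in capitals, is the stretch through which a miRNA pairs with target transcripts. It is the RefSeq entry, encoded at chr2:219001648-219001669 of GRCh38.p14 on the minus strand.
hsa-miR-375-3p: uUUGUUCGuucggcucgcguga

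Promoter windows of the lysosomal genes are shown because the E-box CACGTG is a feature that several of them share and that took no part in drawing up the list. RefSeq windows of GRCh38.p14, from 250 bases before to 50 after a gene's start, were found for 38 of the 49 genes. CACGTG reads the same on both strands, and the extended form was TCACGTG or, on the other strand, CACGTGA, each of which contains the E-box. The E-box was in 7.26% and the extended form in 3.71% of all 35116 windows. By gene, counting any window of a gene, 14 of the 38 lysosomal genes held the E-box (36.8%) and 13 the extended form (34.2%), beside 10.9% and 5.96% of the 14492 measured genes with a window. The E-box stood in 6 of the 19 lysosomal genes that rose and in 8 of the 19 that did not pass the test. The windows below run 5′ to 3′ on the gene's strand, upstream of its start, with the E-box in capitals, for 6 genes that rose and then for 3 that did not pass.
ARSB (chr5:78986101-78986130, minus strand): taattcaataagCACGTGactaaaggattt
GALNS (chr16:88856962-88856991, minus strand): cgccccgcgagtCACGTGgccgtccaggcc
CTSA (chr20:45891298-45891327, plus strand): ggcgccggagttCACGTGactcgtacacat
LAMP1 (chr13:113297199-113297228, plus strand): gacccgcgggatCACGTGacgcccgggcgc
CLN3 (chr16:28492087-28492116, minus strand): aaaacctctgagCACGTGatgggggaacac
M6PR (chr12:8949473-8949502, minus strand): agtttcccacgaCACGTGagtgtgaggggc
MCOLN1 (chr19:7522571-7522600, plus strand): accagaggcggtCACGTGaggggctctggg
GAA (chr17:80101538-80101567, plus strand): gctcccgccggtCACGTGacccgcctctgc
IGF2R (chr6:159969042-159969071, plus strand): ccgggcggctgtCACGTGacgcggttccgg

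LAMP1 had the most extended matches of these genes, with 6 in its window, and IGF2R had 3. In the windows printed, the first base of the E-box lay 22 bases before the start of CLN3, 28 before those of LAMP1 and IGF2R, and 160 before that of ARSB. The windows of DNASE2 and IDS, the leading rises, did not contain these letters. A match is a description of sequence and not a measured binding site.

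With the mimic, 23 of the 49 lysosomal genes rose and none fell. Over all genes, 7.36% rose and 5.19% fell. Among genes with a mean miR-NT signal at or above 5.01, 11.8% rose, as did 22 of the 41 lysosomal genes of that brightness, and ARSB rose among the 8 below it. Without DNASE2, the count was 22 of 48. At an unadjusted p under 0.05, 35 lysosomal genes were higher in limma, beside 16.6% of all genes, and 1, GALC, was lower, beside 9.73% of all genes. The mean difference was above 0 for 45 of the 49 (91.8%), beside 58.9% of all genes. The median difference over the 49 genes was 0.36, and by line it was 0.26 (SAS-L1), 0.33 (HSC2), 0.46 (HSC3) and 0.34 (Ca9-22), where all genes had medians of 0.01 to 0.05. In 34 genes the mimic array was above the miR-NT array in all 4 lines, which included all 23 that rose. The share of all genes that met this was not counted. By line, the mimic array was higher in 40 (SAS-L1), 42 (HSC2), 48 (HSC3) and 44 (Ca9-22) of the 49. Over all genes these shares were 52.3%, 53.9%, 57.3% and 61.6%. The count of rises changed with the lines included, as did the share of all genes that rose. It was 7 without HSC2 (1.74% of all genes), 13 without Ca9-22 (3.43%), 15 without HSC3 (3.12%) and 19 without SAS-L1 (4.70%), with 6 of the 23 rises called in all 4 of these fits (DNASE2, IDS, ARSB, NPC2, TPP1 and CLN3). Without the block, limma called none of the 18239 genes higher, and 9 of the 49 lysosomal genes were higher at an unadjusted p under 0.05, beside 3.23% of all genes.

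**Figure D1:**
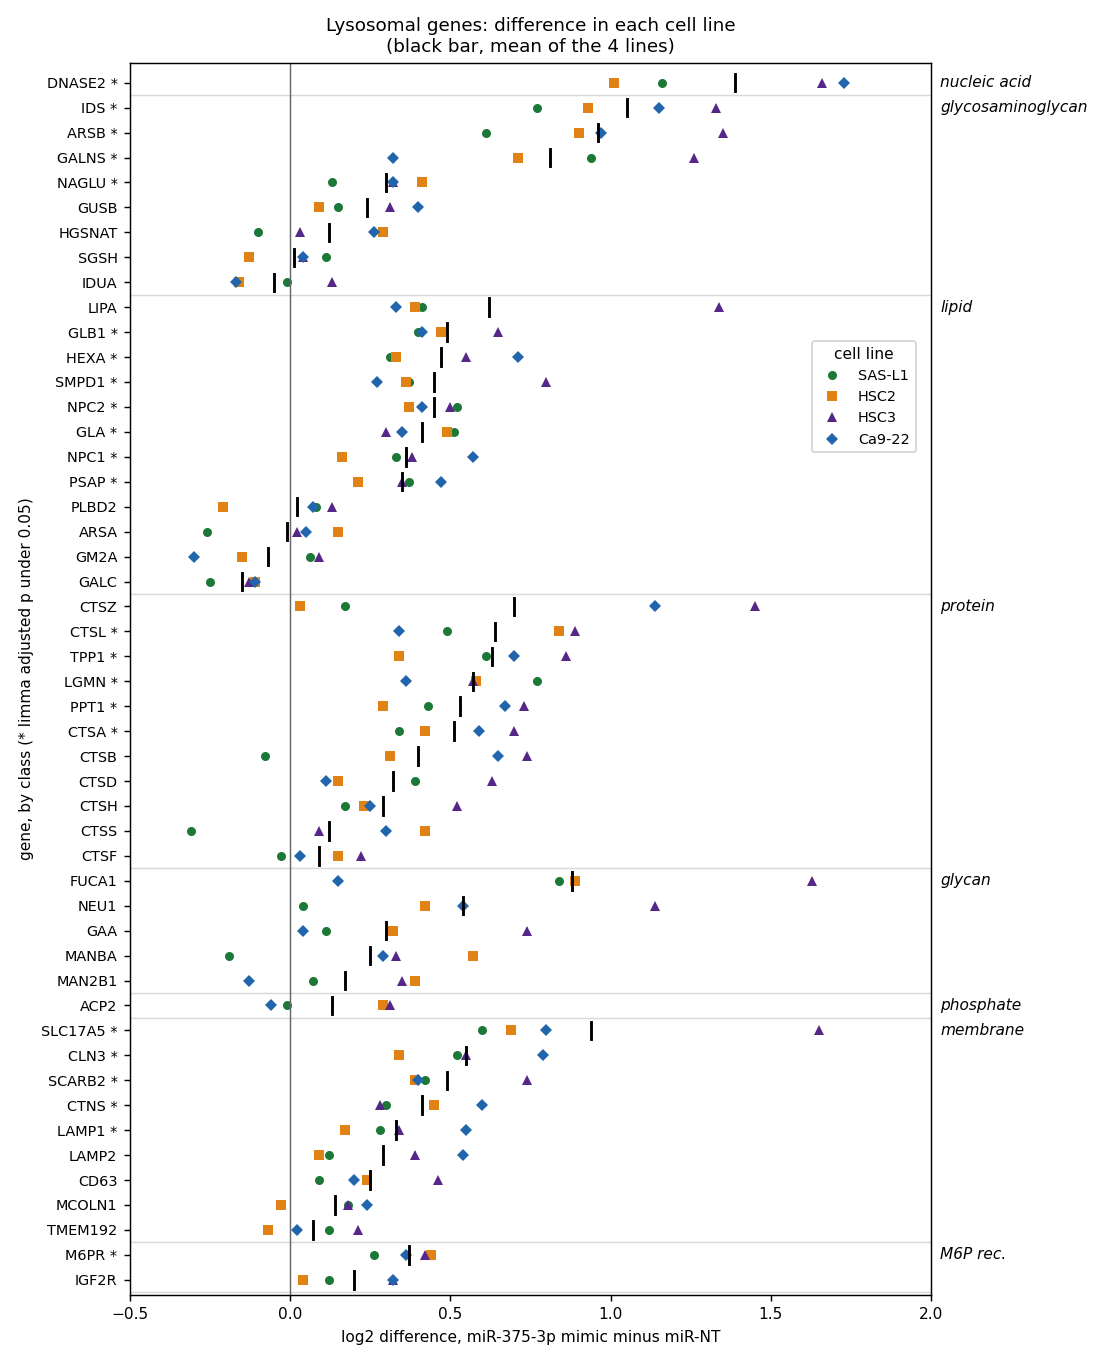
Log2 difference of each of the 49 lysosomal genes, mimic minus miR-NT (horizontal axis), by class (vertical axis), with 1 symbol per cell line, a black bar at the mean of the 4 lines and an asterisk where limma's adjusted p was under 0.05. Most symbols lie right of 0, DNASE2 is farthest right with a mean of 1.39, and GALC is farthest left with -0.15.

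Nucleic acids are the substrate of a single gene of the list. DNASE2, the acid endonuclease that digests DNA in lysosomes, had signals of 7.35, 8.75, 7.99 and 9.44 with the mimic, against 6.19, 7.73, 6.33 and 7.71 with miR-NT. It rose in every line, by 1.39 ± 0.36 on the log2 scale or 2.63-fold (SD, n = 4 cell lines; limma adjusted p = 0.00520). Mimic and miR-NT arrays overlapped in level, because SAS-L1 with the mimic stayed below HSC2 and Ca9-22 with miR-NT, although within each line the mimic array was higher by more than 1. The call held without any single line. The 3 probe sets of the gene differed by 1.39, 1.45 and 0.96, so that the choice of probe set did not decide the call.

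Among the 8 enzymes of glycosaminoglycan breakdown, 4 rose and the test was not passed by the other 4, with a class median of 0.27. IDS, which removes sulfate from iduronate in heparan and dermatan sulfate, had signals of 8.36, 8.45, 9.97 and 9.16 with the mimic, against 7.59, 7.52, 8.63 and 8.02 with miR-NT. It rose by 1.05 ± 0.25 or 2.06-fold (SD, n = 4 cell lines; limma adjusted p = 0.00520), and the call held without any single line. HSC3 was highest under both conditions, and the conditions overlapped because HSC3 with miR-NT exceeded SAS-L1 and HSC2 with the mimic. All 6 probe sets of IDS were higher with the mimic, between 0.15 in a dim one and 1.13. The dim one was the probe set outside the _x_at, _s_at and _a_at types, where the adjusted p was 0.275.

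ARSB, the sulfatase of N-acetylgalactosamine in dermatan and chondroitin sulfate, had signals of 5.21, 5.83, 6.09 and 5.95 with the mimic, against 4.60, 4.93, 4.74 and 4.98 with miR-NT. It rose by 0.96 ± 0.30 (limma adjusted p = 0.00822), and its lowest mimic array was above its highest miR-NT array. That rise was read from a single probe set of the _x_at type, which can bind related transcripts. The other 3 probe sets of ARSB differed by 0.05, 0.13 and 0.07, the mean of all 4 differed by 0.30, and where the probe set was taken by its miR-NT signal alone the adjusted p was 0.682.

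GALNS, the sulfatase of galactose and N-acetylgalactosamine in keratan and chondroitin sulfate, had signals of 6.40, 8.47, 7.85 and 6.97 with the mimic, against 5.46, 7.76, 6.59 and 6.66 with miR-NT. Its rise of 0.81 ± 0.40 (limma adjusted p = 0.0218) was least in Ca9-22, at 0.32. The adjusted p was 0.0651 without SAS-L1 and 0.0825 without HSC2. The lines were spread more widely than the conditions, over 2.31 among the miR-NT arrays, so the conditions overlapped. On the mean of its probe sets GALNS differed by 0.50 (adjusted p = 0.0489). NAGLU, the glucosaminidase of heparan sulfate, rose by 0.30 ± 0.12 (adjusted p = 0.0400), and this call held in no fit without HSC2, HSC3 or Ca9-22 (0.115 to 0.143), nor with array medians subtracted (0.0501). The glucuronidase GUSB differed by 0.24 (adjusted p = 0.0921) and was higher in all 4 lines. HGSNAT, which acetylates heparan sulfate ends, differed by 0.12, the heparan sulfamidase SGSH by 0.01 and the iduronidase IDUA by -0.05. SGSH and IDUA were among the dim genes, with signals below 5.01 on average. The enzymes that rose in this class were 3 sulfatases and NAGLU. The sulfatases ARSA, counted here with the lipid genes, and ARSG and ARSK, counted with other lysosomal enzymes outside the list, did not pass. Their differences were -0.01, -0.07 and 0.03. Because the gene lists set this sorting, no contrast between kinds of sulfatase is drawn.

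**Figure D2:**
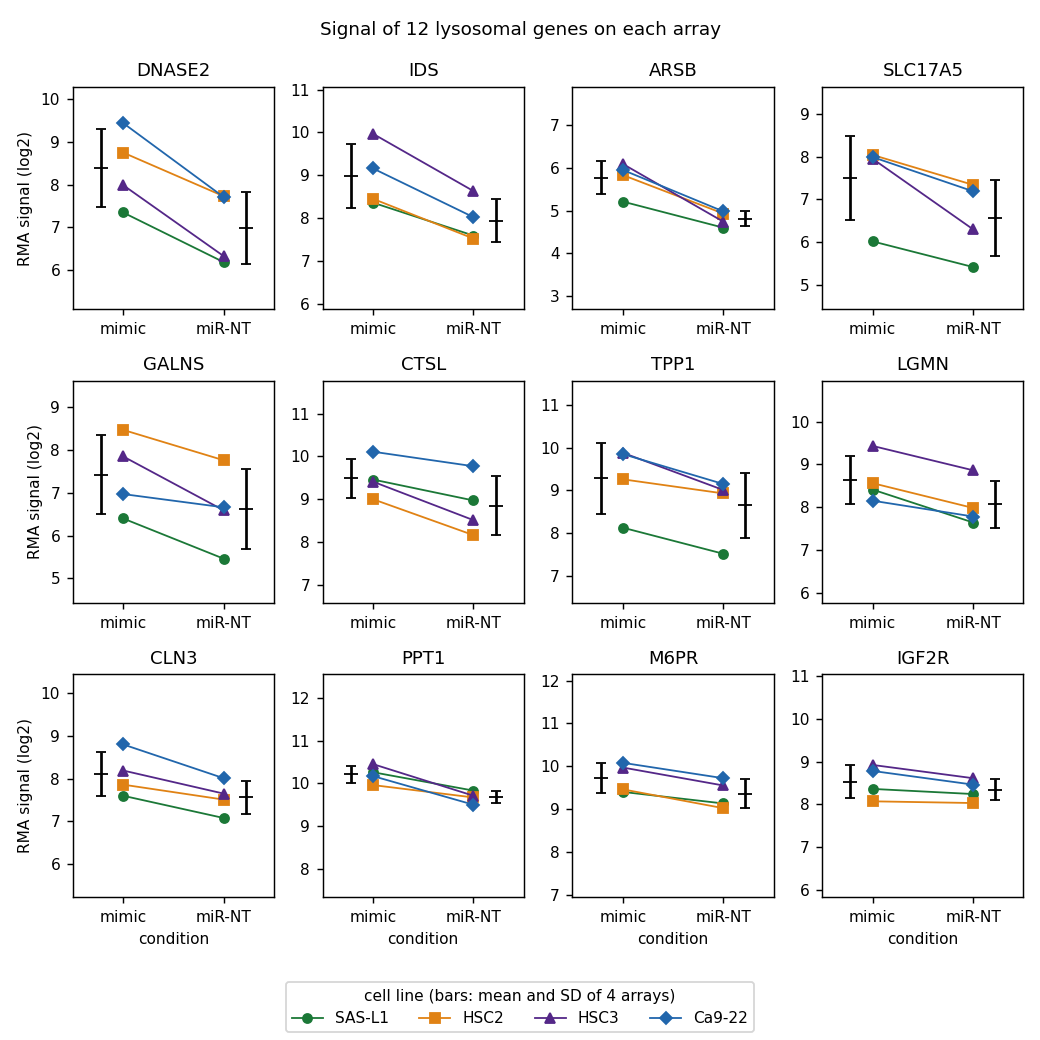
RMA log2 signal (vertical axis) of 12 lysosomal genes with the mimic and with miR-NT (horizontal axis), 1 symbol per array with lines joining the arrays of a cell line, and the mean and SD of the 4 arrays beside them. In the 11 genes that rose each line falls from left to right in the plot, and in IGF2R, which did not pass the test, the slopes are small, between 0.04 and 0.32. Panels share the same height of scale but not the same origin.

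Of the 12 genes of lipid breakdown and transport, 7 rose and 5 did not pass, with a class median of 0.39. GLB1, the galactosidase of ganglioside and keratan sulfate, had signals of 8.05, 8.45, 8.58 and 8.10 with the mimic, against 7.65, 7.98, 7.93 and 7.69 with miR-NT. It rose by 0.49 ± 0.11 or 1.40-fold (SD, n = 4 cell lines; limma adjusted p = 0.0105), with an adjusted p of 0.0530 without HSC2. Its conditions did not overlap, since the lowest mimic array was 8.05 and the highest miR-NT array 7.98. HEXA, the alpha subunit of the hexosaminidase that degrades GM2 ganglioside, had signals of 8.28, 8.90, 9.05 and 9.37 with the mimic, against 7.97, 8.57, 8.51 and 8.66 with miR-NT. It rose by 0.47 ± 0.19 (limma adjusted p = 0.0210), with 0.0625 without HSC2, 0.0702 without HSC3 and 0.0569 without Ca9-22. On the mean of its 8 probe sets HEXA differed by 0.34 (adjusted p = 0.0651). The mimic array of SAS-L1 lay below the miR-NT arrays of the other lines, so the conditions overlapped. GM2A, the activator that presents GM2 ganglioside to this enzyme, differed by -0.07 ± 0.19 (adjusted p = 0.683), and all 4 of its probe sets were lower with the mimic.

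The cholesterol transporters NPC1 and NPC2 both rose. NPC2, which hands cholesterol to NPC1 in the membrane, rose by 0.45 ± 0.07 (SD, n = 4 cell lines; limma adjusted p = 0.00923), and its call held without any single line. NPC1 rose by 0.36 ± 0.17 (adjusted p = 0.0374), and its adjusted p was 0.0610 to 0.110 with any line left out. Another bright probe set of NPC2 differed by 0.51, at a mean miR-NT signal of 10.13. Its dim probe sets, with mean miR-NT signals of 4.24 and 3.88, differed by 0.03 and -0.05. The mean of all 4 differed by 0.23 (adjusted p = 0.0497). Outside the _x_at, _s_at and _a_at types NPC2 had dim probe sets alone, and the brighter differed by 0.03 (adjusted p = 0.899). The adjusted p of NPC1 was 0.0505 with cyclic loess. Sphingolipid enzymes that rose were SMPD1, the acid sphingomyelinase, by 0.45, and GLA, the galactosidase of globotriaosylceramide, by 0.41, together with the saposin precursor PSAP by 0.35. The adjusted p was 0.0354 for SMPD1, 0.0151 for GLA and 0.0229 for PSAP. With a line left out it was above 0.05 in every fit for SMPD1 (0.0603 to 0.104) and PSAP (0.0557 to 0.0748), and without HSC2 for GLA (0.0679). Averaged over its 3 probe sets, GLA differed by 0.24 (adjusted p = 0.156).

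Among the lipid genes that did not pass, the acid lipase LIPA had signals of 10.25, 10.35, 10.36 and 9.63 with the mimic, against 9.84, 9.95, 9.02 and 9.30 with miR-NT. Its difference of 0.62 ± 0.48 (adjusted p = 0.0741) was 1.34 in HSC3 and between 0.33 and 0.41 in the other lines. Without HSC3 the difference was smaller, 0.38, and the adjusted p was 0.0439. The sulfatide sulfatase ARSA differed by -0.01, the phospholipase-like PLBD2 by 0.02 and the galactosylceramidase GALC by -0.15 (adjusted p = 0.176). GALC was the gene of the list with a lower mimic array in all 4 lines, and both GALC and PLBD2 were dim. That holds for the brightest probe set of GALC, while its other 4 differed by 0.01 to 0.12.

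Of the 11 genes of protein breakdown, 5 rose, 6 did not pass, and all 11 had a mean difference above 0. The class median was 0.51, with 0.70 in HSC3 and 0.31 to 0.36 in the other lines. CTSL, a cysteine cathepsin, had signals of 9.46, 9.00, 9.41 and 10.11 with the mimic, against 8.97, 8.16, 8.51 and 9.77 with miR-NT. It rose by 0.64 ± 0.27 or 1.56-fold (SD, n = 4 cell lines; limma adjusted p = 0.0174), with 0.0766 without HSC2 and 0.0520 without HSC3. Ca9-22 with miR-NT exceeded the mimic arrays of the other 3 lines, so the conditions overlapped. TPP1, the tripeptidyl peptidase, had signals of 8.13, 9.26, 9.88 and 9.85 with the mimic, against 7.52, 8.93, 9.01 and 9.15 with miR-NT. Its rise of 0.63 ± 0.22 (limma adjusted p = 0.0127) held without any single line, but on the mean of its 9 probe sets the difference was 0.29 (adjusted p = 0.0440), and the other 8 lay between -0.01 and 0.48. SAS-L1 was the lowest line under both conditions.

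LGMN, the asparaginyl endopeptidase that also matures cathepsins, had signals of 8.41, 8.56, 9.43 and 8.15 with the mimic, against 7.64, 7.98, 8.86 and 7.78 with miR-NT. It rose by 0.57 ± 0.16 (limma adjusted p = 0.0103; 0.0537 without HSC2), and it was one of the genes whose difference was largest in SAS-L1, at 0.77. The conditions overlapped through HSC3, the highest line under both. PPT1, which removes palmitate from proteins, had signals of 10.26, 9.96, 10.45 and 10.17 with the mimic, against 9.83, 9.67, 9.71 and 9.50 with miR-NT. It rose by 0.53 ± 0.21 (limma adjusted p = 0.0181), with 0.0564 without HSC3 and 0.0643 without Ca9-22, and the conditions did not overlap. All 6 of its probe sets were higher, by 0.45 to 0.53. CTSA, the carboxypeptidase that stabilizes the galactosidase GLB1 and the sialidase NEU1, had signals of 9.21, 9.97, 10.14 and 10.57 with the mimic, against 8.87, 9.55, 9.44 and 9.97 with miR-NT. Its rise was 0.51 ± 0.16 (limma adjusted p = 0.0132), with 0.0534 without HSC2 and 0.0502 without Ca9-22. SAS-L1 with the mimic lay below the miR-NT arrays of the other lines.

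The proteases that did not pass were all cathepsins. CTSZ, a carboxypeptidase, had the highest mean difference of the class, 0.70 ± 0.70 (adjusted p = 0.138), with 1.45 in HSC3 and 1.14 in Ca9-22 but 0.17 in SAS-L1 and 0.03 in HSC2. CTSB differed by 0.40 ± 0.37 (adjusted p = 0.127) and was lower with the mimic in SAS-L1, by -0.08. Without SAS-L1, the adjusted p of CTSB was 0.0388 at a difference of 0.57. The aspartic protease CTSD differed by 0.32 (adjusted p = 0.0940) and the aminopeptidase CTSH by 0.29 (adjusted p = 0.0590), both higher in all 4 lines. CTSS, which processes antigens in immune cells, differed by 0.12 and the dim CTSF by 0.09.

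None of the 5 glycan enzymes measured passed the test, although the class median of 0.30 lay among those of the other classes. All 5 mean differences were above 0, and 3 were at an unadjusted p under 0.05. FUCA1, the fucosidase of glycoproteins, had signals of 6.13, 6.86, 7.97 and 4.38 with the mimic, against 5.29, 5.97, 6.34 and 4.23 with miR-NT. The difference was 0.88 ± 0.61 (SD over the 4 lines). Its adjusted p in limma, 0.0502, lay just outside the threshold. In Ca9-22 the difference was 0.15, against 0.84 to 1.63 in the other lines. Without Ca9-22 the adjusted p was 0.0347. The sialidase NEU1 differed by 0.54 ± 0.45 (adjusted p = 0.0939), with 1.14 in HSC3 and 0.04 in SAS-L1. The acid glucosidase GAA, which degrades glycogen, differed by 0.30, the mannosidase MANBA by 0.25 and the mannosidase MAN2B1 by 0.17. HSC3 had the highest class median, 0.74, and SAS-L1 the lowest, 0.07. The acid phosphatase ACP2, the phosphate enzyme of the list, differed by 0.13 (adjusted p = 0.437).

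**Figure D3:**
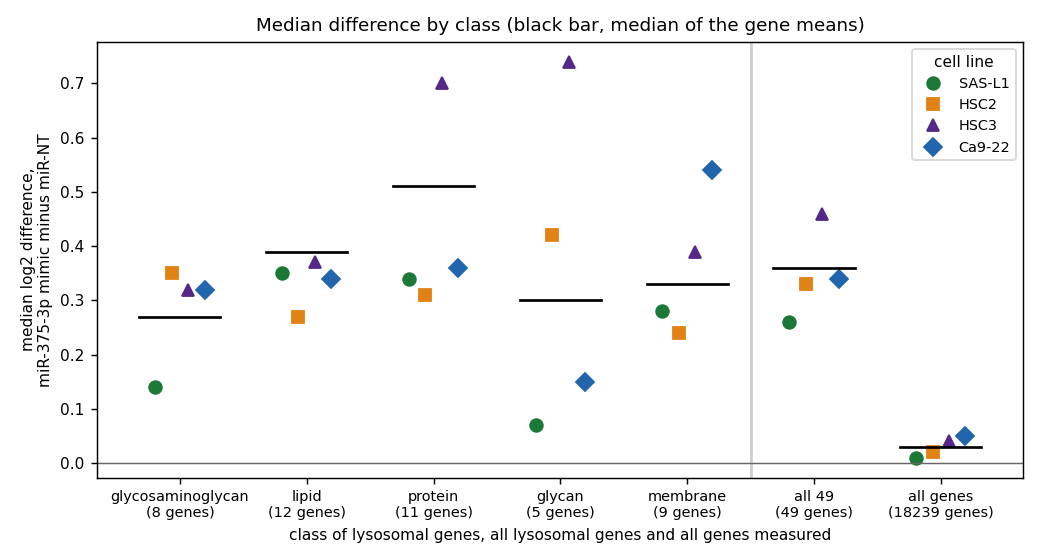
Median log2 difference, mimic minus miR-NT (vertical axis), of each class of lysosomal genes, of all 49 and of all 18239 genes (horizontal axis), with 1 symbol per cell line and a black bar at the median of the gene means. Every class median is above 0 in every line, from 0.07 (glycan, SAS-L1) to 0.74 (glycan, HSC3), where all genes lie between 0.01 and 0.05.

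Of the 9 membrane proteins, 5 rose and 4 did not pass, all with a mean difference above 0 and with a class median of 0.33. SLC17A5, the exporter of free sialic acid, had signals of 6.02, 8.04, 7.95 and 7.99 with the mimic, against 5.42, 7.34, 6.30 and 7.19 with miR-NT. It rose by 0.94 ± 0.48 or 1.92-fold (SD, n = 4 cell lines; limma adjusted p = 0.0232), with 0.0735 without HSC2 and 0.0661 without Ca9-22. HSC3 had the largest difference, 1.65, and SAS-L1 was below the other lines under both conditions, which overlapped. On the probe set outside the _x_at, _s_at and _a_at types the difference was 0.51 (adjusted p = 0.0341). CLN3, a membrane protein of lysosomes whose loss causes a storage disease of neurons, had signals of 7.60, 7.86, 8.19 and 8.80 with the mimic, against 7.08, 7.51, 7.65 and 8.01 with miR-NT. Its rise of 0.55 ± 0.18 (limma adjusted p = 0.0131) held without any single line, and all 8 probe sets were higher, by 0.26 to 0.75. The conditions overlapped, with Ca9-22 highest and SAS-L1 lowest under both. The probe set brightest with miR-NT alone was the one at 0.26, where the adjusted p was 0.0541.

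SCARB2, the receptor that carries glucocerebrosidase to lysosomes, had signals of 9.47, 10.02, 9.92 and 10.12 with the mimic, against 9.05, 9.63, 9.18 and 9.72 with miR-NT. It rose by 0.49 ± 0.17 (limma adjusted p = 0.0159; 0.0587 without HSC2), by 0.74 in HSC3 and by 0.39 to 0.42 in the other lines. Its conditions overlapped in SAS-L1 alone, whose mimic array lay below the miR-NT arrays of HSC2 and Ca9-22. The cystine exporter CTNS rose by 0.41 (adjusted p = 0.0214), with 0.0901 without HSC2 and 0.0618 without Ca9-22. On its probe set that was brightest with miR-NT the difference was 0.02, and averaged over all 8 it was 0.15 (adjusted p = 0.102). The abundant glycoprotein LAMP1 rose by 0.33 ± 0.16 (adjusted p = 0.0428), and with any line left out its adjusted p was 0.0767 to 0.119, and under both other scalings 0.0504 and 0.0528. Its companion LAMP2 differed by 0.29 (adjusted p = 0.108), and on the mean of its 9 probe sets the difference was 0.41 (adjusted p = 0.0473). The tetraspanin CD63 differed by 0.25 (adjusted p = 0.0913), the cation channel MCOLN1 by 0.14 and the dim TMEM192 by 0.07.

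The receptors that deliver the tagged enzymes were M6PR and IGF2R. M6PR, the smaller, cation-dependent receptor, had signals of 9.40, 9.46, 9.97 and 10.08 with the mimic, against 9.13, 9.02, 9.55 and 9.72 with miR-NT. It rose by 0.37 ± 0.08 or 1.29-fold (SD, n = 4 cell lines; limma adjusted p = 0.0163), with 0.0714 without HSC2, 0.0596 without HSC3 and 0.0534 without Ca9-22. Its 4 differences were close to each other, between 0.26 and 0.44, and the conditions overlapped because the lines differed by more than that. IGF2R, the larger receptor, which also takes up the growth factor IGF2, had signals of 8.36, 8.07, 8.92 and 8.78 with the mimic, against 8.24, 8.03, 8.61 and 8.46 with miR-NT. Its difference was 0.20 ± 0.14 (adjusted p = 0.147), with 0.04 in HSC2 and 0.32 in HSC3 and in Ca9-22. A difference between the receptors was not tested.

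The probe sets bear on how far these values depend on the one chosen per gene. The 49 genes had 167 probe sets, of which 152 (91.0%) were higher with the mimic on the mean of the lines, beside 57.5% of all probe sets with a gene symbol. Of the 38 genes with more than 1 probe set, 9 had probe sets on both sides of 0. Among them were GALC and, of the genes that rose, GLA, NPC2, TPP1 and CTNS. Probe sets of 1 gene share its transcripts and are not replicates. Of the 23 rises, 15 were read from probe sets of the _x_at or _s_at type, which can bind more than 1 transcript, and that was also so for 23 of the 49 genes. Only 20 of the 49 genes had a probe set outside the _x_at, _s_at and _a_at types. On those, 4 rose, namely DNASE2, SCARB2, SLC17A5 and GLA, where 3.54% of the 8371 genes with such a probe set rose.

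**Figure D4:**
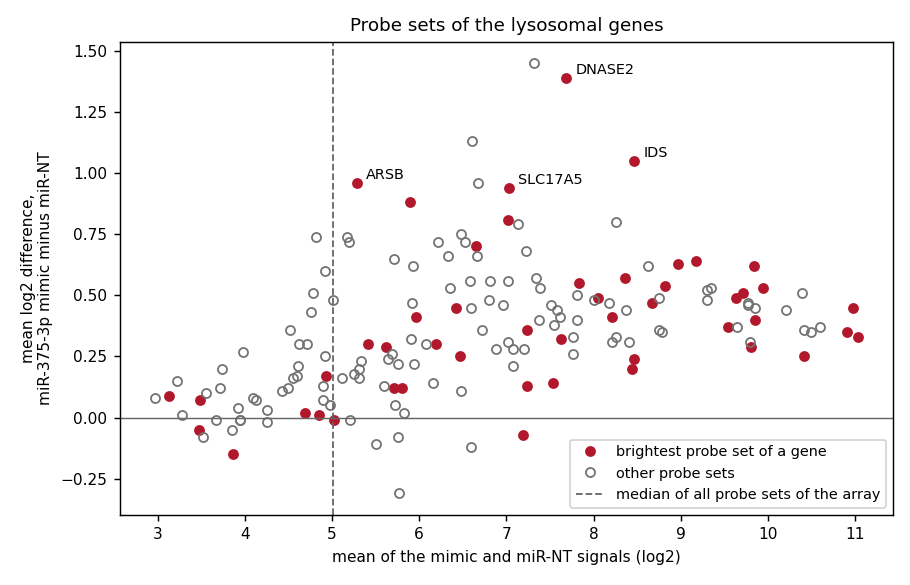
Mean log2 difference of each probe set of the lysosomal genes, mimic minus miR-NT (vertical axis), against its mean log2 signal (horizontal axis), with the brightest probe set of each gene filled and the dashed line at the median of all probe sets, 5.01. Filled symbols left of the dashed line stay between -0.15 and 0.17, and those of DNASE2, IDS, SLC17A5 and ARSB lie near 1 or above it.

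Levels of the lysosomal genes also differed among the lines, which took no part in the choice of the list. The moderated F test of limma over the lines passed for 38 of the 49 genes (77.6%), beside 42.7% of all genes. Among genes with a mean miR-NT signal at or above 5.01 it passed for 35 of the 41 lysosomal genes (85.4%), beside 63.4% of all genes. The error of this test is the spread between the arrays of a line after the mean effect of the mimic. Among the miR-NT arrays, the lines spanned a median of 0.93 for the lysosomal genes and 0.42 for all genes. These medians were not matched for brightness, and the one over all genes includes many dim genes. The span exceeded the mean difference between mimic and miR-NT in 45 of the 49 genes, a share that was not counted over all genes. The lowest mimic array was above the highest miR-NT array in 4 genes, ARSB, GLB1, NPC2 and PPT1, while 1.94% of all genes met this. SAS-L1 had the lowest miR-NT signal in 26 of the 49 genes (53.1%), beside 22.7% of all genes.

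The genes with the widest spans were named after their values were seen. CTSS spanned 2.80, with signals of 5.65, 5.00, 7.46 and 5.00 with the mimic, against 5.96, 4.58, 7.37 and 4.70 with miR-NT (limma F test adjusted p = 0.000428). HSC3 stood above the other lines under both conditions, and the mimic arrays of CTSS were higher in 3 lines and lower in SAS-L1. GALNS followed with 2.31, highest in HSC2, and FUCA1 with 2.11, highest in HSC3 and lowest in Ca9-22. CTSZ (1.99), SLC17A5 (1.92) and GM2A (1.84) came next. CTSZ did not pass the F test (limma adjusted p = 0.0545), and its signal in HSC3 was 5.11 with miR-NT and 6.56 with the mimic. GUSB, often used as a reference gene, spanned 1.79 and was highest in Ca9-22 under both conditions, at 9.95 with the mimic and 9.55 with miR-NT.

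**Figure D5:**
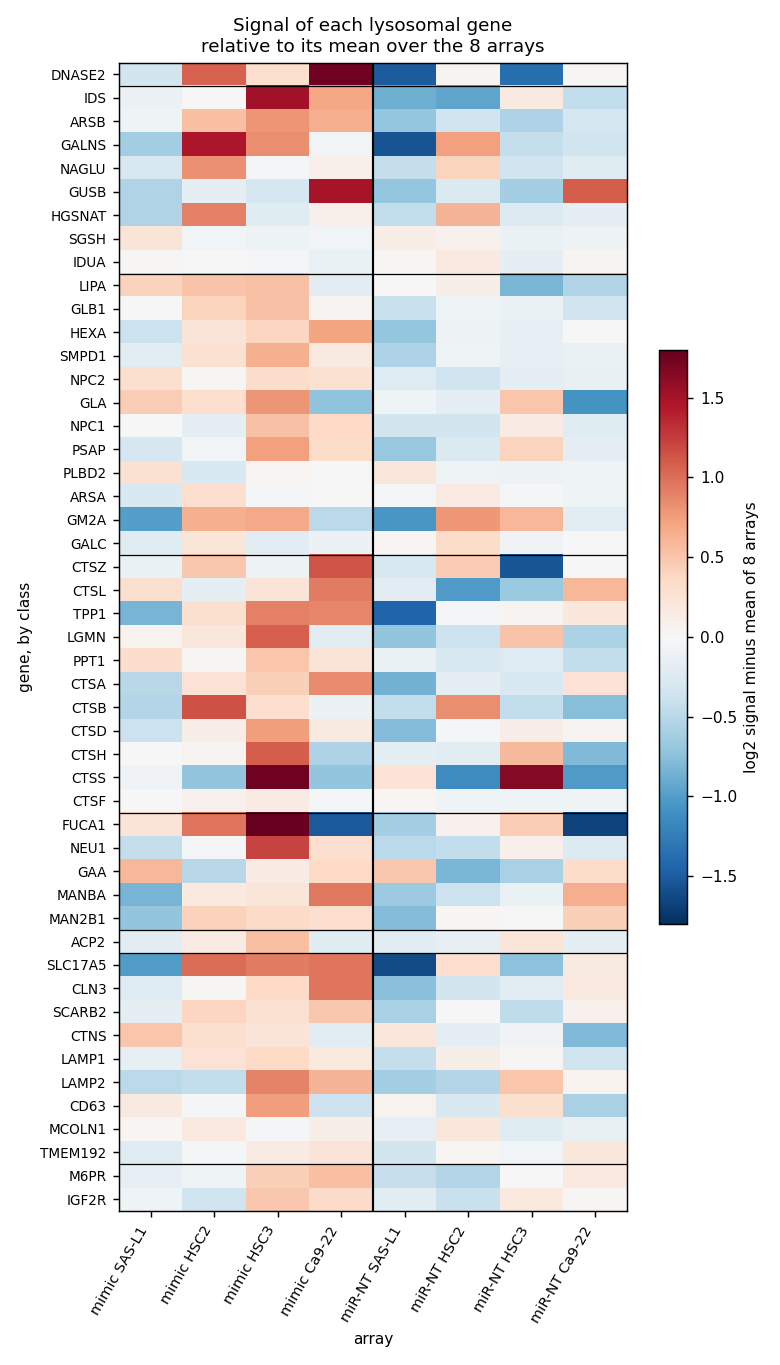
RMA log2 signal of each of the 49 lysosomal genes (vertical axis, by class) on each of the 8 arrays (horizontal axis, mimic arrays left and miR-NT arrays right of the black line), relative to the gene's mean over the arrays. Red is above and blue below that mean. The SAS-L1 columns are bluer than their neighbours, and the pattern of the lines recurs left and right of the black line, as in CTSS and GUSB.

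The size of the difference varied among lines. It was largest in HSC3 in 27 of the 49 genes (55.1%), beside 26.7% of all genes, and smallest in SAS-L1 in 18 (36.7%), beside 27.8% of all genes. More than 2-fold differences were found in 9 genes in HSC3, 3 in Ca9-22, 1 in HSC2 and 1 in SAS-L1, and DNASE2 was the gene present in all 4. In HSC3 they were DNASE2, IDS, ARSB, GALNS, SLC17A5, LIPA, CTSZ, FUCA1 and NEU1. The share of all genes with differences of that size was not counted in any line, so these counts describe the list alone. With 1 array per line and condition, whether the lines responded differently could not be tested. In HSC3 the dim macrophage marker CD14 differed by 1.21 as well, while CD53 and CD163 of the same marker list differed by -0.11 and -0.21. A part of CD14 in the differences of the lysosomal genes was not tested.

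Genes of the same organelle outside the list were read for context. Over all genes 7.36% rose and 5.19% fell, and 11.8% rose among those with a mean miR-NT signal at or above 5.01. Of 25 other lysosomal enzymes measured, 6 rose and 2 fell, with a median of 0.18. The acid ceramidase ASAH1 rose by 1.15 ± 0.46 (SD, n = 4 cell lines; limma adjusted p = 0.0119; 0.402 at a difference of 0.60 on a probe set outside the _x_at, _s_at and _a_at types), the carboxypeptidase SCPEP1 by 0.73 and the granulin precursor GRN by 0.51. PCYOX1, which degrades prenylated cysteines, fell by 0.83 (limma adjusted p = 0.0164). Without HSC2 the adjusted p was 0.0510 for ASAH1 and 0.0775 for PCYOX1, and it was 0.0565 for SCPEP1 without HSC3 and 0.058 for GRN without Ca9-22. Of 25 other lysosomal membrane proteins, 7 rose and 1 fell, with a median of 0.20. The amino acid transporters SLC36A1 and SLC38A9 rose by 0.96 ± 0.14 (limma adjusted p = 0.00401) and 0.69 ± 0.21 (adjusted p = 0.00899), and the lysophospholipid transporter SPNS1 rose by 0.57 ± 0.08 (adjusted p = 0.00634). All 3 of these calls held without any single line, but SLC36A1 differed by 0.32 averaged over its probe sets (adjusted p = 0.0142) and by 0.57 on one outside the _x_at, _s_at and _a_at types (adjusted p = 0.00755). The transporter MFSD8 fell by 0.55 (adjusted p = 0.0137; 0.0562 without HSC2 and 0.0538 outside those types).

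Of 17 genes that tag and sort the enzymes, 2 rose and 1 fell. None of the 17 was below 5.01 in mean miR-NT signal, and 11.8% of all genes of that brightness rose. The count of rises is near that share. NAGPA, which uncovers the mannose 6-phosphate tag, rose by 0.51 ± 0.11 (SD, n = 4 cell lines; limma adjusted p = 0.00900), although on a probe set outside the _x_at, _s_at and _a_at types the difference was 0.11 (adjusted p = 0.609) and on the mean of its probe sets 0.31. Of the AP-1 adaptor, the epithelial subunit AP1M2 rose by 0.41 (adjusted p = 0.0125; 0.0518 without HSC2) and the subunit AP1B1 fell by 0.30 (adjusted p = 0.0377; 0.0790 or more with any line left out, and 0.149 on the mean of its probe sets). Of 14 genes of lysosome fusion and positioning, 5 rose and 2 fell, beside 7.36% and 5.19% of all genes. The SNARE protein VAMP8 rose by 0.62 ± 0.05 (limma adjusted p = 0.00490) and the adaptor PLEKHM1 by 0.67 (adjusted p = 0.0160), while VAMP7, another SNARE of lysosomes, fell by 0.58 ± 0.17 (limma adjusted p = 0.0107). The call of VAMP8 held without any single line, while the adjusted p was 0.0584 for PLEKHM1 without Ca9-22 and 0.0505 for VAMP7 without HSC2. VPS33A, a subunit of the tethering complex HOPS, rose by 0.39 (adjusted p = 0.0271; 0.0557 or more with any line left out).

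The MiT-TFE factors themselves differed little on these arrays, and none of the 4 passed the test in limma or was below an unadjusted p of 0.05. TFEB averaged 6.20 with the mimic and 6.16 with miR-NT, and TFE3 averaged 5.49 with the mimic and 5.45 with miR-NT. MITF differed by 0.24 ± 0.30 (SD, n = 4 cell lines; limma adjusted p = 0.271) and the dim TFEC by -0.07. Arrays of mRNA do not report where these proteins are in the cell.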

How the data were processed

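The data comprise 8 Affymetrix Human Genome U219 arrays of total RNA from 4 OSCC cell lines. The deposited values are log2 signals that the authors computed by RMA, which corrects the background, quantile-normalizes the arrays and summarizes each probe set, so that array totals are alike and dim signals understate changes. RMA is the tool named in the submitters' processing notes, and scanner files were not used here. Of 49386 probe sets, 45259 had 1 gene symbol, brought to current symbols through the RefSeq annotation of GRCh38.p14, and each of 18239 genes took its brightest probe set over all 8 arrays, a choice that can favour a probe set that rose.

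The package limma 3.58.1 in R 4.3.3 (functions lmFit and eBayes) tested the differences, the cell line being a block, and levels among lines by its moderated F test, both with Benjamini-Hochberg adjustment over all genes at 0.05. The fit was tested on simulated data. The cell line pairs the arrays by design, and the arrays of a line deviated together (correlation across genes of 0.836 to 0.886). Arrays are single cultures as far as the labels say. The p-values for the mimic therefore rest on the spread of the within-line differences over the 4 lines, and not on the spread in level between lines. The number of arrays limits the precision.

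The members and the gene lists were chosen with earlier results of these data known. Values by array were given for the rises seen in all 4 lines, at most 14 by size, and for DNASE2, M6PR and IGF2R, and other lists name at most 4 genes with the smallest p. LIPA, FUCA1, CTSS and the spans among lines were singled out after their values were seen. Alternatives were a fit without the block, median and cyclic loess scaling, other probe set choices, a filter on dim genes, eBayes with a trend and robust setting, fits on 3 of the lines, 2 t-tests and another sorting of GLB1, HEXA and PPT1 into classes. Leaving out DNASE2 was added after the data were seen. Promoter and miRNA sequences came from RefSeq.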

Additional observations from a re-analysis of the deposited data

Results flagged for a closer look

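In 4 of the 49 lysosomal genes, the difference in 1 line stood apart from those of the other 3 lines by Dixon's ratio of the gap to the range. Chance alone sets apart about 1 in 20 genes in this way. The difference of the acid lipase LIPA was 1.34 in HSC3 and 0.33 to 0.41 in the other lines, and LIPA did not pass the test over the 4 lines. The difference of SCARB2 was 0.74 in HSC3 and 0.39 to 0.42 in the other lines. For PLBD2 it was -0.21 in HSC2 and 0.07 to 0.13 elsewhere, and for GALC it was -0.25 in SAS-L1 and -0.13 to -0.11 elsewhere, both at dim signals.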

How the results depend on the processing

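The count of 23 rises was 20 to 25 under other scalings, other variance models, the mean of the probe sets, the probe set brightest with miR-NT or a filter on dim genes, and 22 without DNASE2. In limma without the replicate block it was 0 (9 at an unadjusted p under 0.05), as it was with the methods' t-test (4 unadjusted) and with a paired t-test (26 unadjusted), where 0, 0 and 1 of all 18239 genes were called higher. With 1 line left out it was 7 to 19, from fewer arrays, where 1.74% to 4.70% of all genes rose. No gene of the list fell under any setting (GALC unadjusted in limma and 1 gene in the paired t-test). The median difference was 0.33 to 0.39 with 1 line left out.

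Without the _x_at, _s_at and _a_at probe sets, which left 20 genes, 4 rose (3.54% of all genes) and the median was 0.18. The class medians were 0.15 for glycosaminoglycan, 0.02 for lipid, 0.12 for protein and 0.49 for membrane genes. Of the 20 genes, 11 differed among lines, and the share of all genes that did so was not counted in this setting. Without dim genes the glycosaminoglycan median was 0.55 and the lipid median 0.43, and on the mean of all probe sets the lipid median was 0.29. With GLB1 and HEXA counted as glycosaminoglycan enzymes that median was 0.39. The other class medians moved by less than the spread between lines.

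Genes near 0 changed sign. On the mean of all probe sets ARSA was at 0.04 and GALC at 0.03. Without the 3 probe set types CTSH was at -0.01, GALC at 0.01 and SGSH at -0.08. Under both other scalings PLBD2 and SGSH were at -0.01. With 1 line left out ARSA ran from -0.06 to 0.07, GM2A from -0.13 to 0.00, PLBD2 from -0.02 to 0.09 and SGSH from -0.02 to 0.06. Dim signals can understate changes.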
